A study of Danio rerio with 18 samples.

Results

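GFP-positive cells sorted by FACS from tbx5 zebrafish embryos were compared with GFP-positive cells from wild-type embryos of the same stage, 72 hpf (hours post fertilization). The comparison rests on 2 tbx5 and 2 wild-type libraries, 4 of the 18 in the series, which were chosen by their labelled genetic background, GFP status and stage. The other 8 GFP-positive libraries (wild type at 24 and 48 hpf, and gata5 and hand2 at 72 hpf, 2 each) entered the fit to estimate the spread, and those of gata5 and hand2 also served as a second reference for tbx5. The labels name a gene for each background but no allele, do not say which reporter gives GFP, and give no number of embryos per sort. The series title calls the cells cardiomyocytes. All embryos were raised at 28°C. Nothing in the labels says that replicates 1 and 2 came from separate sorts, so p-values measure the spread between these libraries, which may be technical. With 2 libraries against 2, an exact two-sided permutation test of a single value cannot give a p below 0.333.

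Tbx5 is a T-box transcription factor that binds DNA together with partners such as Nkx2-5 and Gata4 and acts in the differentiation of heart muscle, in the patterning of the chambers and in the outgrowth of the forelimb or pectoral fin. In humans, loss of one copy of TBX5 causes Holt-Oram syndrome, with defects of the heart and the upper limb. In zebrafish, loss of tbx5a leads to a stretched heart that fails to loop and to missing pectoral fins. The heart of a larva at this stage consists of a muscle layer, an inner endocardium and an outer epicardium, and the atrioventricular canal between its chambers is where endocardial cells begin to form the valve.

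The libraries held 23617376 and 32141901 counts in wild type and 30871617 and 19493256 in tbx5, so that 3 counts, the floor used here, correspond to between 0.0844 and 0.166 CPM in 1 library, where CPM is a count scaled to a fixed library total, here with TMM factors. A count was seen for 19080 and 18493 genes in wild type and for 21977 and 20419 in tbx5. The wild-type replicates differed from each other more than those of any other GFP-positive group: 25.6% of 9903 genes differed by over 2 times between them, against 9.95% between the tbx5 replicates and 6.37 to 19.7% in the other groups. Muscle genes were present in all 4 libraries, MYL7 (myl7, the regulatory light chain of heart muscle myosin) at 25.2 to 128 CPM. NKX2-5, a defining heart muscle factor, was at 0 in wild-type replicate 2, at 3.36 CPM in wild-type replicate 1 and at 0.344 and 4.59 CPM in tbx5. Genes of yellow pigment cells stood far higher: gch2, an enzyme of pteridine synthesis, was at 8410 and 4640 CPM in wild type and at 6410 and 11600 CPM in tbx5.

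tbx5a, taken here as the gene named in the label, was detected in both backgrounds. Wild type held 13.9 and 19.6 CPM of TBX5 (tbx5a, ENSDARG00000024894) and tbx5 held 14.0 and 4.64 CPM, so that tbx5 replicate 1 lay within the wild-type range and tbx5 replicate 2 below it. Its log2 fold change of −0.84 ± 0.86 (SE) did not pass the test (edgeR adjusted p = 0.837), and its level does not check the label. The paralog tbx5b had no count in these 4 libraries, which allows up to 3 counts in each.

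Of 23767 genes tested, 11 were called at an edgeR adjusted p under 0.05, which is 0.0463% (10 higher in tbx5, 0.0421%, and 1 lower, 0.00421%). The gene that fell was heg1, a receptor of the endocardium. Of the genes that rose, TSC1 was well expressed in both backgrounds, while the other 9 had between 0 and 7 counts over both wild-type libraries together. At an unadjusted p under 0.05 the test gave 1983 genes, 8.34% of those tested. DESeq2 called 593 genes or 2.76% of those it gave an adjusted p (428 higher, 1.99%, and 165 lower, 0.769%). limma-voom called 252 or 1.06% (198 higher, 0.833%, and 54 lower, 0.227%). They shared 11 and 8 of the 11 edgeR calls. All 4 libraries were ordered by background, without overlap, at 4902 genes higher in tbx5 (20.6%) and 3413 genes lower in tbx5 (14.4%), and the log2 fold change had a median of 0.017 over all genes. The count of edgeR calls depended on single libraries: it was 539 without wild-type replicate 1, 35 without wild-type replicate 2, 5 without tbx5 replicate 2, and 0 when only the 4 libraries were fitted, where 1631 genes had an unadjusted p under 0.05.

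**Figure D1:**
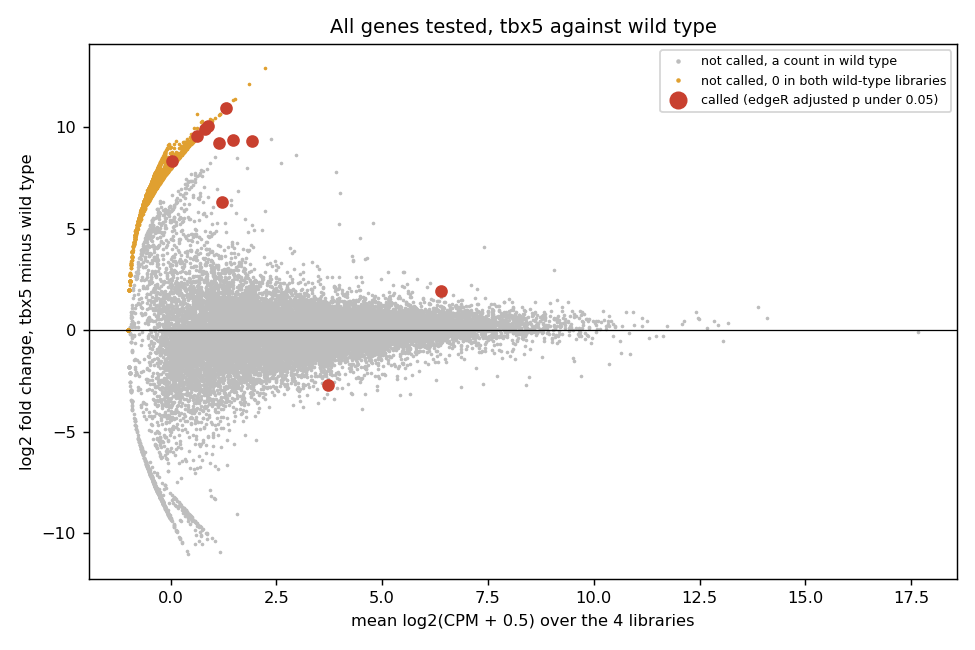
Log2 fold change of tbx5 minus wild type for each of the 23767 genes tested (y axis), against the mean log2(CPM + 0.5) of the 4 libraries (x axis). Orange points are genes at 0 in both wild-type libraries and red points the 11 called genes. heg1 is the red point below 0, TSC1 the one at the right, and the other 9 lie at the upper left, where wild type has few or no counts.

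heg1 (heart of glass, ENSDARG00000018441) encodes a transmembrane protein of endocardial and endothelial cells that acts with the cerebral cavernous malformation proteins in the growth and concentric thickening of the heart wall. It was at 30.6 and 33.4 CPM in wild type and at 5.54 and 4.20 CPM in tbx5. The wild-type libraries lay close together, well above both tbx5 libraries. The log2 fold change was −2.71 ± 0.43 (SE, n = 2 and 2 libraries, edgeR adjusted p = 0.039, and 1.52e-07 by DESeq2). The gata5 libraries (10.4 and 8.53 CPM) and the hand2 libraries (16.6 and 13.2 CPM) lay between the tbx5 libraries and those of wild type at 72 hpf. Wild type was at 58.8 and 55.5 CPM at 24 hpf and at 14.7 and 11.7 CPM at 48 hpf, so that both tbx5 libraries were the lowest of the 12. The call was lost when either tbx5 library was left out, with a filter of 5 CPM in 2 libraries and with replicate number as a block. It was also lost when only the 72 hpf GFP-positive libraries were fitted and when only genes above 0 in all 4 compared libraries were kept. No gene was called when those 4 libraries were fitted alone.

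heg1 belongs to a list of 19 genes of the atrioventricular canal and endocardium, in which it was the only member called by edgeR, while DESeq2 called 3 lower and limma-voom 2 lower. 9 of the 19 lay lower in tbx5 without overlap and 1 higher (14.4% and 20.6% of all genes), 6 had an unadjusted p under 0.05 in the lower direction (2.86% of all genes did) and the median log2 fold change was −1.02. vcanb, a versican proteoglycan of the cardiac jelly and valve region, was at 48.1 and 89.4 CPM in wild type and at 13.4 and 13.8 CPM in tbx5, a log2 fold change of −2.34 ± 0.41 that missed the threshold in edgeR (adjusted p = 0.077) and passed it in DESeq2 (7.55e-05) and limma-voom (0.034). klf2a, a transcription factor of endothelial cells that responds to blood flow, was at 31.0 and 67.7 CPM in wild type and at 11.4 and 8.18 CPM in tbx5 (−2.33 ± 0.54, edgeR adjusted p = 0.23, DESeq2 0.0062). Both tbx5 libraries lay below both wild-type libraries for these genes, and wild-type replicate 2 was the higher of its pair. The gata5 and hand2 libraries were below both wild-type libraries too, at 16.2 to 26.7 CPM for vcanb and 10.7 to 22.3 CPM for klf2a. BMP4, a signal that patterns the canal, was at 19.0 and 14.6 CPM in wild type and at 7.45 and 5.25 CPM in tbx5 (−1.40 ± 0.43, edgeR adjusted p = 0.398). NFATC1, a factor of valve endocardium, was at 19.0 and 44.1 CPM in wild type and at 11.9 and 15 CPM in tbx5. It was at 8.96 and 12.2 CPM in gata5 and at 19.7 and 12.9 CPM in hand2. Not all canal genes lay lower: hapln1a, which crosslinks hyaluronan in the cardiac jelly, was at 62.8 and 133 CPM in wild type and at 143 and 148 CPM in tbx5 (0.57 ± 0.39, edgeR adjusted p = 0.653), and the pair of TBX2 genes lay on opposite sides of 0 (−1.18 and 0.44), neither called.

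Markers of endothelium also lay partly lower. None of their 27 tested members was called by edgeR, 8 had an unadjusted p under 0.05 in the lower and 1 in the higher direction (2.86% and 5.48% of all genes), DESeq2 called 2 lower and 1 higher and limma-voom none. 10 of 27 lay lower without overlap and 2 higher (14.4% and 20.6% of all genes), and the median log2 fold change was −1.01. Their summed level was 325 and 557 CPM in wild type and 519 and 219 CPM in tbx5, which overlaps. The defining members kdrl (34.2 and 61.9 CPM in wild type, 46.9 and 18.4 in tbx5) and cdh5 (11.8 and 37.5, against 16.4 and 7.96) were above 0 in all 4 libraries, and their ranges overlapped between the backgrounds. The part of endothelial content in the difference of heg1, vcanb and klf2a was not tested. In sorted bulk samples, fewer cells of a type and less RNA per cell cannot be told apart.

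TSC1 (ENSDARG00000057918, one of 2 gene IDs with this symbol) encodes hamartin, a subunit of the complex that restrains mTORC1 signalling. It was at 43.5 and 42.7 CPM in wild type and at 160 and 168 CPM in tbx5. Replicates differed little in either background and the groups lay far apart. The log2 fold change was 1.93 ± 0.28 (edgeR adjusted p = 0.021). The gata5 libraries (142 and 190 CPM) and the hand2 libraries (108 and 108 CPM) also stood above both wild-type libraries of this stage, and wild type was at 69.1 and 79.0 CPM at 24 hpf and at 53.1 and 63.2 CPM at 48 hpf. The call held without wild-type replicate 1 and was lost without wild-type replicate 2 or either tbx5 library and when only the 72 hpf GFP-positive libraries were fitted.

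The other 9 genes that rose were nearly or fully missing from both wild-type libraries at 72 hpf and present in tbx5. DHX33, a DEAH-box RNA helicase, had 0 counts in both wild-type libraries and 343 and 226 in tbx5, at least 225-fold higher against a floor of 3 counts over the group. ZC3H12B, a CCCH zinc finger protein of the Regnase family, had 0 and 1 counts in wild type and 500 and 250 in tbx5, a ratio of 890 with a counting interval of 159 to 35200. uros, the uroporphyrinogen III synthase of haem synthesis, had 0 counts in wild type and 93 and 112 in tbx5, at least 81.1-fold higher. In each of these genes both tbx5 libraries held many reads and wild type 1 or none.

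POLK, a DNA polymerase of translesion synthesis, had 0 counts in wild type and 168 and 113 in tbx5, at least 111-fold higher. hdr, a death receptor of the tumour necrosis factor receptor family, had 0 counts in wild type and 95 and 14 in tbx5, at least 43.1-fold higher. si:dkey-23a13.22 had 1 and 6 counts in wild type and 416 and 98 in tbx5. The last 3 IDs have no symbol in the reference table: ENSDARG00000097202 with 0 counts in wild type and 182 and 126 in tbx5, ENSDARG00000083759 with 2 and 0 against 680 and 586, and ENSDARG00000080317 with 1 and 0 against 96 and 458.

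All 11 called genes were above 0 in each of the 8 other GFP-positive libraries. For ZC3H12B the gata5 and hand2 libraries were at 10.5 to 12.3 CPM, near tbx5 at 15.6 and 13.8 CPM. For DHX33 they were at 4.89 to 13.8 CPM, against 10.7 and 12.5 CPM in tbx5. In these 9 genes the wild-type 72 hpf libraries were thus the lowest of the 12. The other libraries were not alike in all of them. In wild type hdr was at 315 and 290 CPM at 24 hpf and at 5.16 and 2.91 CPM at 48 hpf. uros was at 104 and 99.4 CPM at 24 hpf and at 7.37 and 6.37 CPM at 48 hpf. Among 7530 genes at 5 CPM or more in all libraries of the other 5 groups, 1 had a 0 in wild-type replicate 1 and 31 in wild-type replicate 2. None was at 0 in both. This rule leaves out every called gene at 0 in both wild-type libraries, since each was under 5 CPM in some other library. DHX33, for example, was at 4.89 CPM in gata5 replicate 1. The count therefore does not bear on those genes. The same count, over the genes that pass this rule for each group, was 0 and 1 for the tbx5 libraries, 2 and 5 for gata5, 0 and 1 for hand2, 0 in both at 48 hpf, and 121 and 252 for wild type at 24 hpf. When only genes with a count above 0 in all 4 libraries were kept, an alternative chosen after seeing the data, 2 of 15541 were called, TSC1 and si:dkey-23a13.22. With a filter of 5 CPM in 2 libraries, only DHX33 and ZC3H12B of the 9 genes stayed called. With the 72 hpf GFP-positive libraries only, those genes and ENSDARG00000083759 did. limma-voom did not call hdr, ENSDARG00000080317 or si:dkey-23a13.22. Leaving out single libraries, the calls of DHX33, ZC3H12B, uros and si:dkey-23a13.22 held in all 4 cases, and those of the other 5 genes were lost in 1 or 2 of them.

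**Figure D2:**
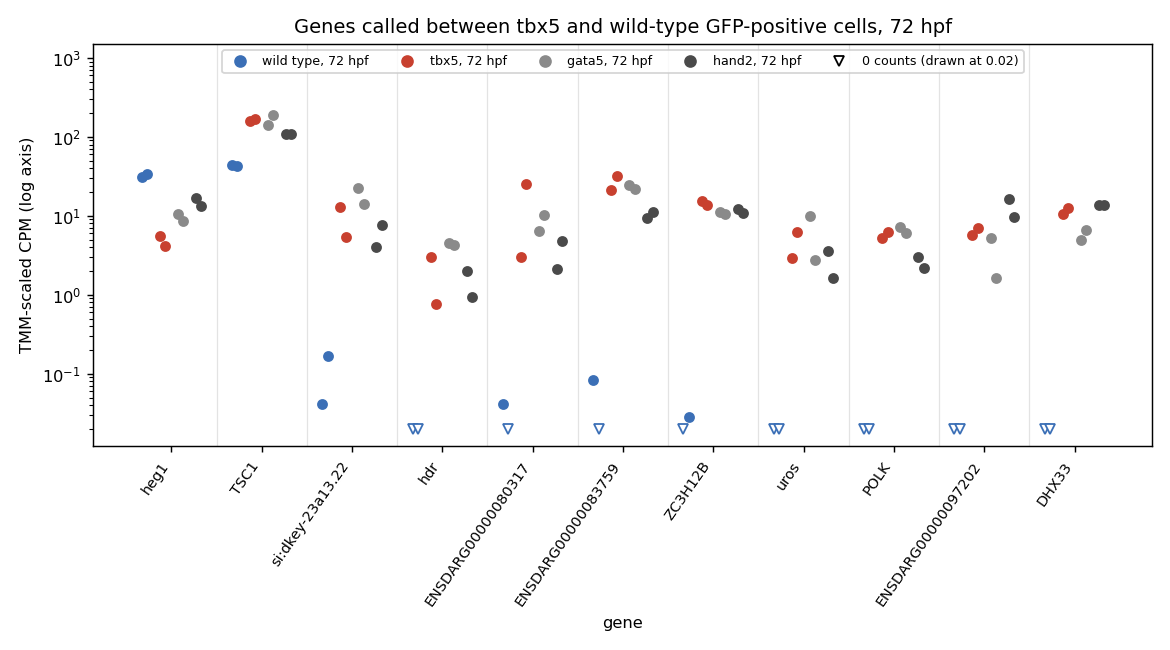
TMM-scaled CPM (log axis) of the 11 called genes in the 8 GFP-positive libraries at 72 hpf, 1 point per library, with open triangles for 0 counts. heg1 is lowest in tbx5. In the other genes the wild-type libraries are lowest, and the gata5 and hand2 libraries lie nearer to tbx5.

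Genes of heart muscle lay lower in tbx5 than in wild type, but none passed the edgeR test. Of 47 sarcomere genes, 21 lay lower without overlap and 1 higher, against 14.4% and 20.6% of all genes, and the median log2 fold change was −0.89. 3 had an unadjusted p under 0.05, all lower, and neither DESeq2 nor limma-voom called any. MYH7 (the ID matched to vmhc, the ventricular myosin heavy chain) was at 259 and 129 CPM in wild type and at 47.2 and 22.4 CPM in tbx5, a log2 fold change of −2.48 ± 1.19 (edgeR adjusted p = 0.612). Both tbx5 libraries were below the lower wild-type library. myh6, the atrial myosin heavy chain, was at 231 and 90.6 CPM in wild type and at 93.9 and 41.1 CPM in tbx5, which overlaps (−1.25 ± 0.97).

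MYL7 was at 128 and 38.0 CPM in wild type and at 29.5 and 25.2 CPM in tbx5 (−1.60 ± 1.12). TNNT2 (ENSDARG00000020610), the cardiac troponin T of the thin filament, was at 61.0 and 15.9 CPM in wild type and at 14.4 and 9.45 CPM in tbx5 (−1.68 ± 0.86). For both, wild-type replicate 2 lay nearer to tbx5 than to wild-type replicate 1. TMOD1, which caps the thin filament, was at 20.6 and 15.6 CPM in wild type and at 6.48 and 2.54 CPM in tbx5 (−2.00 ± 0.59, edgeR adjusted p = 0.387). The 2 TTN IDs, for the giant spring protein titin, were at 1400 and 3570 and at 1890 and 3950 CPM in wild type, and at 1300 and 991 and at 1470 and 1090 CPM in tbx5 (−1.12 ± 0.62 and −1.19 ± 0.60), with wild-type replicate 2 the high one. TTN and actin genes are also expressed in skeletal muscle, whose markers were high in wild-type replicate 2.

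Among 17 genes of atrial and ventricular identity and natriuretic peptides, 8 lay lower without overlap and 2 higher (14.4% and 20.6% of all genes), with a median of −1.25 and no edgeR call (1 in each direction at an unadjusted p under 0.05, and 1 higher gene, BMP10, called by DESeq2 and limma-voom). nppa, the atrial natriuretic peptide, was at 57.1 and 12.3 CPM in wild type and at 7.70 and 7.30 CPM in tbx5 (−2.21 ± 1.18, edgeR adjusted p = 0.617). nppb, its relative, was low and did not separate the backgrounds, at 0 and 4.30 CPM in wild type and at 3.51 and 2.16 CPM in tbx5. BMP10, a growth factor of trabecular and atrial muscle, went the other way, with 0 counts in both wild-type libraries and 72 and 40 in tbx5, at least 44.3-fold higher (edgeR adjusted p = 0.306, DESeq2 0.0012). It was also at 0 in both gata5 libraries and at 4.82 and 2.88 CPM in hand2.

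The 34 genes of calcium cycling and ion channels were mixed, 10 lower and 4 higher without overlap (14.4% and 20.6% of all genes), with a median of −0.40 and no edgeR call (2 genes in each direction at an unadjusted p under 0.05, and 1 higher by DESeq2 and by limma-voom). HCN4 (ENSDARG00000061685, 1 of 2 gene IDs with this symbol), the pacemaker channel, was at 23.3 and 18.2 CPM in wild type. In tbx5 this ID was at 7.07 and 1.55 CPM (−2.26 ± 0.90). RYR2, the calcium release channel of the heart muscle reticulum, was at 136 and 97.6 CPM in wild type and at 36.2 and 14.7 CPM in tbx5 (−2.20 ± 0.99). ATP2A2 (ENSDARG00000005122), for the pump that refills the reticulum, was at 66.0 and 93.2 CPM in wild type and at 233 and 113 CPM in tbx5 (1.12 ± 0.34). RYR2 and this ATP2A2 ID thus lay on opposite sides, and neither passed the test (edgeR adjusted p = 0.606 and 0.393). The paralog atp2a2a overlapped, at 52.9 and 73.0 CPM in wild type and at 77.2 and 43.4 CPM in tbx5 (−0.06 ± 0.55).

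Of 41 transcription factors of the heart tested, 16 lay lower and 5 higher without overlap, where all genes gave 14.4% and 20.6%, with a median of −0.40 and no edgeR call (6 lower and 2 higher at an unadjusted p under 0.05, against 2.86% and 5.48% of all genes, and 1 higher by DESeq2). HAND2, a factor of heart progenitors, was at 42.6 and 41.4 CPM in wild type and at 17.4 and 19.8 CPM in tbx5, a difference larger than the spread within either pair (−1.18 ± 0.96, edgeR adjusted p = 0.748). It was below wild type in gata5 (20.3 and 19.6 CPM) and hand2 (2.32 and 0 CPM) too. TBX20 was at 13.7 and 12.2 CPM against 10.3 and 8.85, GATA5 at 19.9 and 33.7 against 17.0 and 16.2, and HEY2, a repressor of atrial genes in the ventricle, at 16.4 and 9.48 against 5.98 and 6.47. gata4 (−0.14 ± 0.57), GATA6 (0.86 ± 0.57) and NKX2-5 (0.55 ± 2.05) overlapped between the backgrounds.

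The MEF2C symbol is carried by 2 IDs, which lay apart. ENSDARG00000009418 was at 28.1 and 25.9 CPM in wild type and at 65.4 and 57.5 CPM in tbx5 (1.19 ± 0.30, edgeR adjusted p = 0.281, DESeq2 0.0094). ENSDARG00000029764 was at 32.0 and 40.6 CPM in wild type and at 41.3 and 31.7 CPM in tbx5, with a log2 fold change of 0.007 ± 0.36 that had either sign among the alternatives.

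Of 10 T-box factors, 3 lay lower without overlap (14.4% of all genes) and none higher, and none was called by edgeR, DESeq2 or limma-voom (1 at an unadjusted p under 0.05). That one was TBX18, a factor of epicardium and sinus venosus, at 27.3 and 26.4 CPM in wild type and 8.51 and 8.90 CPM in tbx5 (−1.62 ± 0.59, edgeR adjusted p = 0.489). Replicates were close together in both backgrounds. TBX18 was below both wild-type libraries in gata5 (3.75 and 4.35 CPM) and hand2 (15.4 and 4.96 CPM) as well. Of 22 genes of the fin bud and its T-box pathway, 9 lay lower and 3 higher without overlap (14.4% and 20.6% of all genes). The median was −0.33, with no call by any of the 3 tools. At an unadjusted p under 0.05, 1 was higher (5.48% of all genes) and 0 lower (2.86%).

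**Figure D3:**
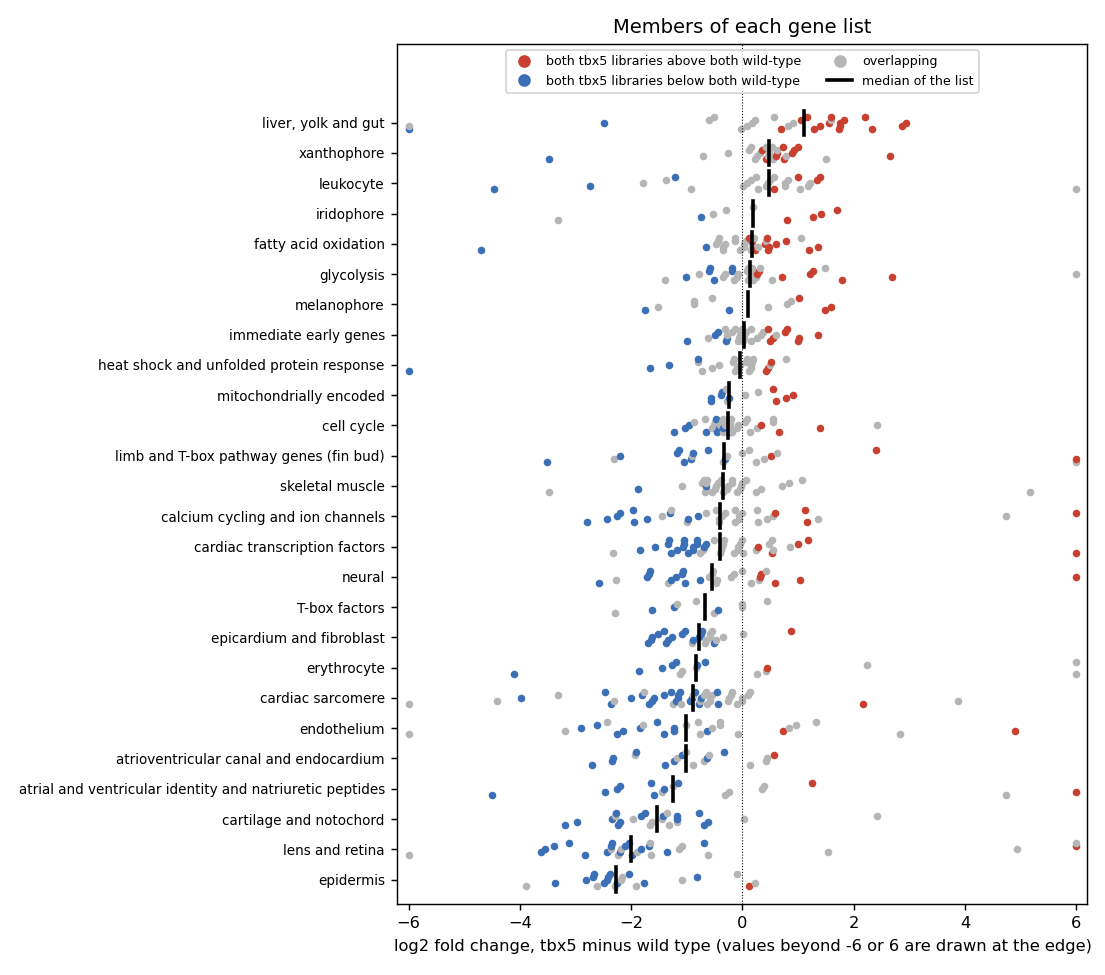
Log2 fold change of tbx5 minus wild type for each tested member of the 26 gene lists, 1 point per gene, with a bar at the median of each list. Blue and red points are genes whose 4 libraries do not overlap. Epidermis and lens and retina have the lowest medians, at −2.27 and −2.01, and liver, yolk and gut the highest, at 1.1.

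Markers of other cell types differed between the libraries too, and wild-type replicate 2 was high in several. The summed level of 31 skeletal muscle genes was 4490 and 15300 CPM in wild type and 7320 and 8830 CPM in tbx5. For 24 genes of cartilage and notochord it was 2720 and 9220 CPM against 2630 and 1480 CPM, and for 22 epidermis genes 4590 and 11000 CPM against 3250 and 3900 CPM. Wild-type replicate 2 had the highest of the 4 sums in all of these, and replicate 1 the lowest in skeletal muscle. For 47 sarcomere genes the sums were 6140 and 11500 CPM in wild type and 4870 and 4160 CPM in tbx5.

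Epidermal genes had the lowest median of the 26 lists, with 12 of 22 lower and 1 higher without overlap (14.4% and 20.6% of all genes, also for the lists that follow), 9 lower at an unadjusted p under 0.05, 0 called by edgeR or limma-voom and 3 lower by DESeq2. krt5, a keratin of basal epidermis, was at 212 and 715 CPM in wild type and at 89.9 and 55.7 CPM in tbx5 (−2.67 ± 0.80, edgeR adjusted p = 0.441). Of 30 lens and retina genes 16 lay lower and 1 higher without overlap, with 2 lower and 1 higher called by DESeq2, 2 lower by limma-voom and none by edgeR (5 lower and 1 higher at an unadjusted p under 0.05). Among those that lay lower was opn1lw2, a red cone opsin, at 32.7 and 124 CPM in wild type and at 18.9 and 15.1 CPM in tbx5. Of 25 epicardium and fibroblast genes 15 lay lower and 1 higher, with a median of −0.78, and 12 lower and 1 higher had an unadjusted p under 0.05. col1a1a, a chain of fibrillar collagen, was at 831 and 1810 CPM in wild type and at 566 and 360 CPM in tbx5 (−1.51 ± 0.49). Of 16 erythrocyte genes 7 lay lower and 1 higher, the lower ones including the globin hbae3, at 407 and 417 CPM in wild type and at 122 and 223 CPM in tbx5 (−1.26 ± 0.36). Against the mean of gata5 and hand2, medians were near 0 for some lists: −0.165 for epicardium and fibroblast, −0.056 for lens and retina and −0.048 for cartilage and notochord. They were −1.21 for epidermis, −1.17 for erythrocyte and −0.40 for endothelium genes, and edgeR called no member of these lists.

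Set against each wild-type library alone, a count chosen after seeing the data, both tbx5 libraries lay below wild-type replicate 1 at 31.5% and below wild-type replicate 2 at 33.3% of all genes. For the sarcomere list these shares were 57.4% and 76.6%, and for the canal and endocardium list 52.6% and 73.7%. Both heart lists were thus above the share of all genes against either wild-type library. For skeletal muscle the direction depended on the library: both tbx5 libraries were below wild-type replicate 1 in 12.9% of the genes and below replicate 2 in 80.6%. For epidermis (54.5% and 90.9%) and for cartilage and notochord (62.5% and 91.7%) both shares were above those of all genes. The part that other cell types in the sort had in the values of the heart genes was not tested.

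**Figure D4:**
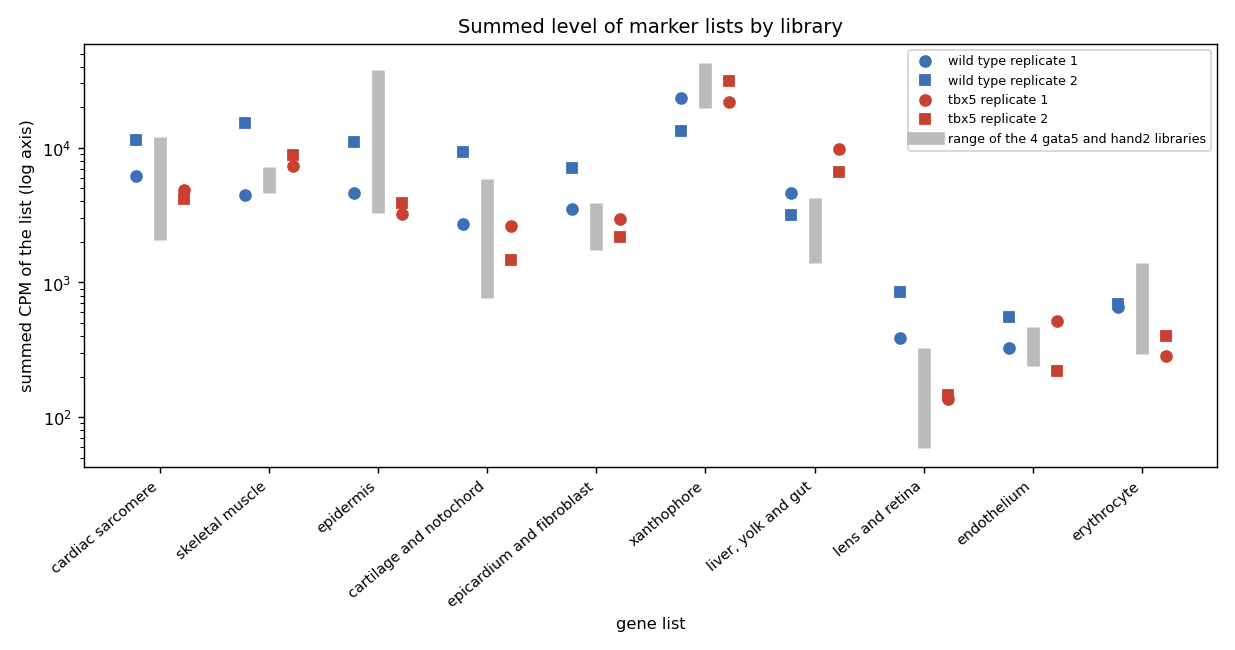
Summed TMM-scaled CPM (log axis) of 10 gene lists in wild type (blue) and tbx5 (red), with a circle for replicate 1, a square for replicate 2 and a grey bar for the range of the 4 gata5 and hand2 libraries. Wild-type replicate 2 is highest in skeletal muscle, cartilage, fibroblast, lens and endothelium lists, and both tbx5 libraries are above all the others in the liver list.

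Genes of liver, yolk and gut lay higher in tbx5. Of 28 tested, 15 lay higher and 2 lower without overlap, against 20.6% and 14.4% of all genes, and the median log2 fold change was 1.1. None was called by edgeR, and 9 had an unadjusted p under 0.05 in the higher direction (5.48% of all genes did) and 1 in the lower. DESeq2 called 3 and limma-voom 10, all higher (1.99% and 0.833% of all genes). apobb.1, an apolipoprotein B of lipoprotein particles, was at 238 and 156 CPM in wild type and at 1810 and 1210 CPM in tbx5 (2.94 ± 0.83, edgeR adjusted p = 0.422, DESeq2 0.0018).

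The 3 chains of fibrinogen, the clotting protein made by liver cells, lay higher together. fga was at 23.1 and 12.1 CPM in wild type and at 181 and 76.7 CPM in tbx5, a log2 fold change of 2.87 ± 1.19. FGB was at 43.3 and 21.6 CPM against 209 and 117 (2.33 ± 0.58), and FGG at 52.5 and 45.9 CPM against 219 and 111 (1.75 ± 0.43). In each, the lower tbx5 library was above the higher wild-type library, tbx5 replicate 1 was the highest, and edgeR adjusted p-values were 0.593, 0.306 and 0.281.

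The whole list summed to 4590 and 3190 CPM in wild type and to 9850 and 6620 CPM in tbx5, and to 1400 to 4260 CPM in gata5 and hand2. fabp10a, the fatty acid binding protein of hepatocytes, did not follow, at 60.3 and 23.0 CPM in wild type and at 53.1 and 35.0 CPM in tbx5. The exocrine pancreas gene CEL, carried by 2 IDs, was at 0 in both tbx5 libraries. Both tbx5 libraries were above wild-type replicate 1 in 57.1% and above replicate 2 in 78.6% of the list, against 35.0% and 38.3% of all genes. The part of liver or yolk RNA in the sort in these values was not tested.

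The tbx5 libraries were also compared with the mean of gata5 and hand2, embryos of the same stage with other cardiac factors named in their label. 9 genes were called, all higher in tbx5 (0.0379% of 23767), and none lower by edgeR, with 874 genes at an unadjusted p under 0.05 (3.68%), of which 360 were lower (1.51%), 49 lower by DESeq2 (0.25%) and none lower by limma-voom. serpina1l and serpina1, related to the protease inhibitor alpha-1 antitrypsin, were at 550 and 339 and at 291 and 186 CPM in tbx5. In gata5 they were at 42.6 and 27.6 and at 19.5 and 23.0 CPM, and in hand2 at 85.5 and 103 and at 50.3 and 63.5 CPM, with log2 fold changes of 2.95 ± 0.33 and 2.78 ± 0.29 (edgeR adjusted p = 0.0033 and 0.0030).

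PLG, the plasminogen of clot dissolution, was at 195 and 82.3 CPM in tbx5 against 7.44 to 34.3 CPM in gata5 and hand2 (2.92 ± 0.40). PYGL, the liver glycogen phosphorylase, was at 269 and 128 CPM against 11.4 to 53.1 CPM (2.81 ± 0.32), and tfa, the iron carrier transferrin, at 866 and 592 CPM against 89.0 to 170 CPM (2.60 ± 0.23, edgeR adjusted p = 0.00036). In all of these the tbx5 libraries were above each of the 4 others, which was required to name serpina1l, serpina1, PLG and PYGL. The tbx5 libraries were above both wild-type libraries too, by log2 fold changes of 0.69 (tfa) to 1.46 (PYGL) that edgeR did not call. a2ml, an alpha-2-macroglobulin, and f8, clotting factor VIII, rose as well, by 2.54 and 2.66, as did LAMB2, a laminin chain of basement membranes (1.70). PPOX, an enzyme of haem synthesis, was called at 4.67, with 0 CPM in both gata5 libraries. It was at 2.69 and 3.37 CPM in tbx5 and at 2.28 and 2.48 CPM in hand2, so the size of its change rests on gata5. f8 and PPOX lay lower in tbx5 than in wild type, by −1.28 and −1.27.

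Of the 28 liver, yolk and gut genes, 3 were called higher in tbx5 than in gata5 and hand2 (0.0379% of all genes). 22 of 28 lay above all 4 libraries, against 7.89% of all genes, and none below, against 5.75%. The median log2 fold change was 2.04, and 19 had an unadjusted p under 0.05, all higher. All genes gave 2.16% higher and 1.51% lower at that p. Of 47 sarcomere genes 6 lay above and 1 below, with a median of −0.43 and no edgeR call (1 higher and 2 lower at an unadjusted p under 0.05). Of 19 canal and endocardium genes 2 lay above and 2 below, with a median of −0.26 and no edgeR call (2 higher and 3 lower at an unadjusted p under 0.05), and heg1 was below all 4 libraries (−1.28 ± 0.38, edgeR adjusted p = 0.832). MYL7 was at 408 and 114 CPM in hand2 and 36.6 and 3.17 CPM in gata5, a range that holds both tbx5 libraries.

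**Figure D5:**
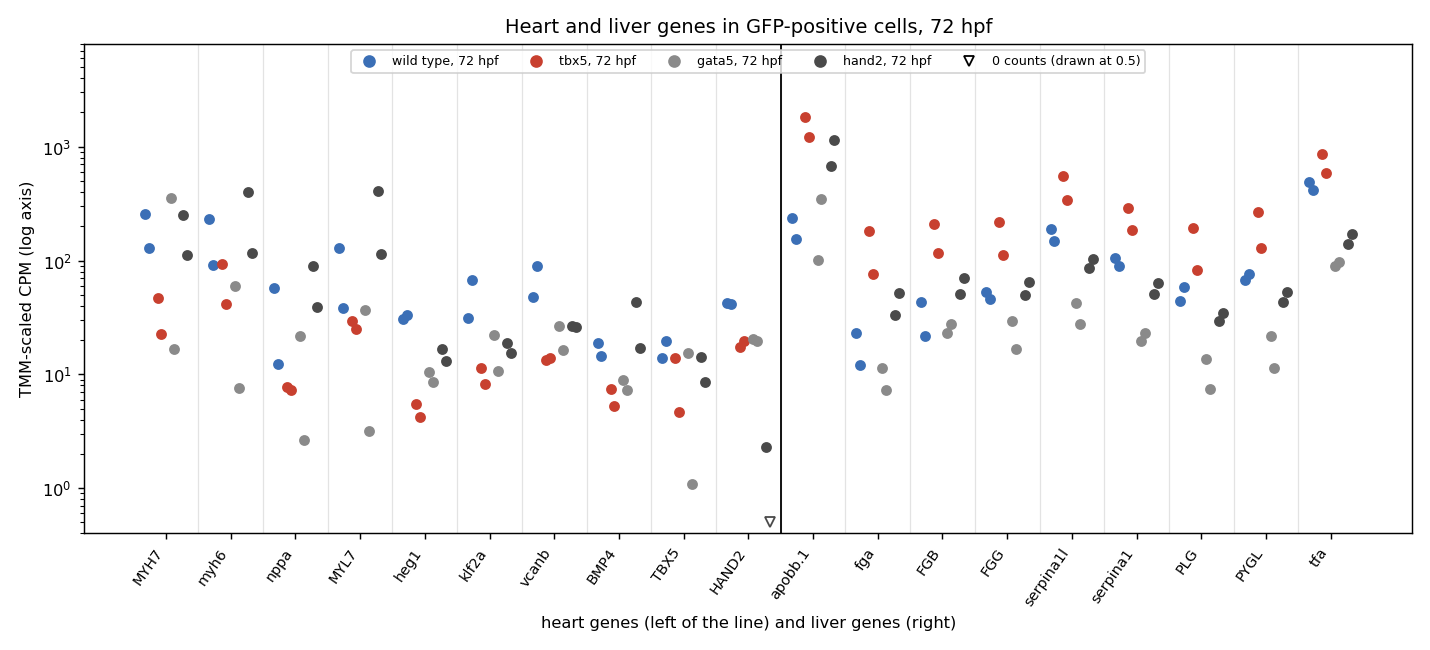
TMM-scaled CPM (log axis) of 10 heart genes (left) and 9 liver genes (right) in wild type, tbx5, gata5 and hand2 GFP-positive libraries at 72 hpf, 1 point per library and an open triangle for 0 counts. The 9 liver genes were picked with their values known, and fabp10a and CEL, which did not follow, are not shown. All 10 heart genes shown have a negative log2 fold change against wild type. Heart genes with a positive one, such as ATP2A2, GATA6, BMP10, hapln1a and MEF2C (ENSDARG00000009418), are not shown. In each of the 9 both tbx5 libraries are above all the others. This is close in apobb.1, where a hand2 library is at 1150 CPM against 1210 CPM. heg1 is lowest in tbx5.

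Genes that missed the threshold in edgeR were ranked by their edgeR p-value among those with a mean of 10 CPM or more and a symbol other than a clone name. Their libraries also had to lie apart by background, so that separation was fixed by the choice. The lowest p-values on the lower side were those of vcanb, her4.5, gnb3b, OTUB1 and g2e3. All of these passed the threshold in DESeq2, and all but her4.5 and g2e3 passed it in limma-voom. her4.5, a Notch-responsive repressor of the hairy and enhancer of split family, was at 31.4 and 68.5 CPM in wild type and at 11.4 and 8.07 CPM in tbx5 (−2.36 ± 0.42, edgeR adjusted p = 0.088). gnb3b, a G protein beta subunit of cone photoreceptors, was at 54.3 and 98.9 CPM against 12.3 and 10.1 (−2.77 ± 0.57), and it was at 1.25 to 5.87 CPM in gata5 and hand2. OTUB1 (ENSDARG00000011462, 1 of 2 gene IDs with this symbol), a deubiquitinase, was at 50.7 and 44.3 CPM against 9.33 and 15.9 (−1.92 ± 0.43). g2e3, a ubiquitin ligase, was at 19.7 and 40.2 CPM against 7.82 and 5.14 (−2.20 ± 0.49). For both, the gata5 and hand2 libraries were below wild type as well, at 15.9 to 34.7 CPM and 3.58 to 16 CPM.

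On the higher side these were GAS8, serpinb14, THBS4, PEX14 and GLDC, and all of them passed the threshold in DESeq2 and in limma-voom. serpinb14, a serine protease inhibitor, was at 23.1 and 26.8 CPM in wild type and at 91.8 and 97.5 CPM in tbx5 (1.92 ± 0.35, edgeR adjusted p = 0.089), and GLDC, a glycine cleavage enzyme, was at 24.4 and 16.7 CPM against 74.2 and 73.0 (1.84 ± 0.35). For both, gata5 and hand2 stood above wild type as well. GAS8 had 0 counts in wild type and 246 and 340 in tbx5. THBS4 (ENSDARG00000102777, 1 of 2 gene IDs with this symbol) had 4 and 0 against 616 and 401. PEX14, of the peroxisome import machinery, was at 4.15 and 1.32 CPM against 24.2 and 27.6.

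Of 27 xanthophore genes 10 lay higher and 1 lower without overlap (20.6% and 14.4% of all genes), with a median of 0.48 and no call by any of the 3 tools (3 at an unadjusted p under 0.05). aox5, a xanthophore oxidase, was at 2420 and 1350 CPM in wild type and at 2550 and 3230 CPM in tbx5. Medians were 0.13 for 33 glycolysis genes, 0.16 for 32 genes of fatty acid oxidation, −0.24 for 13 mitochondrially encoded genes, −0.26 for 38 cell cycle genes and 0.03 for 33 immediate early genes, and none of their members was called by edgeR, DESeq2 or limma-voom. At an unadjusted p under 0.05 these lists had 4, 1, 1, 1 and 0 members higher in tbx5 (5.48% of all genes). Lower at that p were 3 cell cycle genes and no others (2.86% of all genes). Medians of the remaining lists were −0.04 for 25 heat shock and unfolded protein genes, −0.55 for 28 neural genes, 0.47 for 26 leukocyte genes, 0.19 for 9 iridophore genes and 0.11 for 12 melanophore genes, with no edgeR call. At an unadjusted p under 0.05 they had 0, 1, 2, 0 and 1 members higher and 1, 4, 0, 0 and 0 lower. Of these, DESeq2 called 1 heat shock and 1 neural gene lower, and limma-voom 1 heat shock gene lower and 1 neural gene in each direction.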

How the data were processed

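RNA of sorted cells had been extracted with a Trizol-based column kit and made into libraries with a low input kit, per the labels' protocols. The values used are counts as deposited: integers for each library and Ensembl ID that the authors had not normalized. The deposited regularized log2 table was not used. Trimmomatic 0.36, STAR 2.5, SAMtools 1.4, DESeq2 and build GRCz10 are listed per the submitters' processing notes. No source used here gives the counting tool, the annotation or the strand setting, so reads of paralogs and of overlapping or antisense genes cannot be assigned with certainty. Intervals and floors cover counting error only (95%).

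Counts of the 12 GFP-positive libraries (6 groups, 23767 genes after filterByExpr, 6 residual degrees of freedom, biological coefficient of variation 0.89) were fitted in edgeR 4.0.16 (R 4.3.3) with TMM scaling and the two-sided quasi-likelihood test, with Benjamini-Hochberg adjustment over all genes. DESeq2 1.42.0 and limma 3.58.1 (voom) were alternatives. On simulated counts, changes that were recovered had the right direction. Most changes of every size simulated were missed, the smallest in every case, so a gene not called may still have changed. The share of false calls was above the threshold, so some of the called genes may be false calls. Symbols came from a reference table (24555 of 28298 IDs). Upper-case symbols can stand for several paralogs. The members and 26 gene lists were chosen with earlier results of these data known. Named genes were called genes with a mean of 10 CPM or more in either background and called list members. A fixed set of 19 heart and pigment genes was added whatever their values. Where fewer than 5 were called in a direction, the 5 lowest p-values among uncalled genes at that level were named too. Against gata5 and hand2, the 5 largest changes among called genes at the same minimum level were named. Except for list members and the fixed set, a gene also needed libraries that do not overlap and a symbol that is not a clone name. Of the others, klf2a, BMP4, NFATC1, hapln1a, TBX2, kdrl, cdh5, TMOD1, BMP10, HCN4, RYR2, ATP2A2, atp2a2a, TBX18, krt5, opn1lw2, col1a1a, hbae3, apobb.1, fga, FGB, FGG, fabp10a, CEL and the remaining called genes were named after their values were seen. No sequences were used.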

Additional observations from a re-analysis of the deposited data

Results flagged for a closer look

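The GFP-negative fraction of each background, 1 library each and so with no test, was outside the comparison. Of the 10 genes that rose in tbx5 GFP-positive cells, 4 were also higher in the GFP-negative library of tbx5 than in that of wild type by unscaled CPM, with exact Poisson intervals that do not overlap. The share of all genes whose intervals lie apart in this way was not counted. The intervals cover counting error only, so these counts cannot say whether the 2 fractions agree. TSC1 was at 75.8 CPM (71.9 to 79.8) in tbx5 and 47.2 CPM (41.7 to 53.1) in wild type, and ZC3H12B at 45.3 CPM (42.3 to 48.4) against 32.4 CPM (27.9 to 37.5). ENSDARG00000083759 was at 55.5 CPM (52.2 to 59.0) against 7.71 CPM (5.60 to 10.4), and ENSDARG00000097202 at 18.1 CPM (16.2 to 20.1) against 9.11 CPM (6.81 to 12). DHX33 and ENSDARG00000080317 went the other way, DHX33 at 18.9 CPM (17.0 to 21.0) in tbx5 and 37.9 CPM (33.0 to 43.3) in wild type, and ENSDARG00000080317 at 9.75 CPM (8.40 to 11.3) against 15.6 CPM (12.5 to 19.2). The intervals of the other 4 overlapped. heg1, which fell in GFP-positive cells, was at 13.0 CPM (11.5 to 14.8) in tbx5 and 26.8 CPM (22.7 to 31.4) in wild type. All 11 genes had counts in the wild-type GFP-negative library, at 7.71 to 47.2 CPM.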

How the results depend on the processing

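The count of 11 genes called between tbx5 and wild type was 593 with DESeq2, 252 with limma-voom, 407 with no filter on low counts, 3 with a filter of 5 CPM in 2 libraries, 4 with the 72 hpf GFP-positive libraries only and 0 with the 4 libraries alone. Among alternatives chosen after seeing the data it was 2 for genes above 0 in all 4 libraries and 4 for genes at 1 CPM in 10 libraries. It ranged from 5 to 539 when single libraries were left out, a lone sample then being assumed to vary like the other groups. The 9 genes called against gata5 and hand2 were 108 with DESeq2, 26 with limma-voom, 233 with no filter and 24 with the 72 hpf libraries only, and 9 to 19 when single libraries were left out. RLE scaling, library totals and removal of the most abundant and mitochondrial genes left both counts at 9 to 12. With replicate number as a block the counts were 8, with heg1 no longer called, and 12. Deviations of same-numbered tbx5 and wild-type libraries correlated at −0.0757 over genes, within −0.0896 to 0.0881 over all 15 pairs of groups. This value cannot tell whether libraries of equal number share a sort, which the labels do not state. TBX5 stayed uncalled under each alternative run, at −1.07 with the block and from −1.86 (without tbx5 replicate 1) to −0.26 (without tbx5 replicate 2) with single libraries left out.

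Among the uncalled genes, the sign turned for MEF2C ENSDARG00000029764 (−0.055 with RLE and DESeq2, −0.099 with library totals, −0.003 with no filter, −0.014 with the block, −0.001 without abundant genes and 0 with the 72 hpf libraries only). With single libraries left out, ranges that cross 0 were −0.202 to 0.184 for this ID, −0.606 to 8.82 for nppb, −2.25 to 8.67 for NKX2-5, −1.02 to 0.391 for gata4, −0.027 to 0.955 for gch2 and −6.30 to 1.89 for TNNT2 ENSDARG00000100694. Over all alternatives, named genes gave 893 values with the same call and direction, 77 newly called, 46 no longer called and 16 turned. List medians moved by over 1 SD in 52 of 363 cases. The cause was not tested.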
